A study of Mus musculus with 12 samples.

Results

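The genes described here are 43 genes of the lysosome, of the vacuolar ATPase (V-ATPase) and of autophagy, taken from the 54232 genes of the deposited count table by matching Ensembl identifiers to symbols. They comprise 11 cathepsins, 12 other hydrolases, 7 membrane and lipid-handling proteins, 2 transcription factors, 8 V-ATPase subunits and 3 autophagy genes, and all 43 passed the filter on low counts. RNA was sequenced from B16F10 cells, a melanoma line of C57BL/6 mice, in 4 groups of 3 libraries. WT libraries came from untreated cultured cells. Relapsed libraries came from the cell lines ITF1, Rel and ITM, sorted from tumors that had relapsed after immunotherapy and then cultured to confluency. Lyso libraries came from cultured cells incubated with lysosomes derived from T cells, for 48 hours according to the labels, while the methods of the study describe a shorter exposure to T-cell granules. Tumor libraries (numbered 1, 3 and 4) came from live melanoma cells sorted out of digested relapsed tumors, with RNA extracted at once. The tumors had been grown under the skin of mice aged 6 weeks, an age and a strain that the labels give for all 4 groups. All groups share the B16F10 background. The 3 relapsed libraries carry different names and are treated here as separate lines, which the names alone do not establish. No group holds untreated tumors, so that growth in the animal and relapse after immunotherapy cannot be told apart. The labels do not say that libraries of a group came from separate cultures or animals, so p-values measure the spread between these libraries, which may be partly technical.

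Lysosomes break down proteins, lipids, glycans and nucleic acids with acid hydrolases, and the V-ATPase, a rotary proton pump with a membrane V0 sector and a cytosolic V1 sector, makes their lumen acidic. Autophagy delivers cytoplasm and organelles to them in double-membrane vesicles coated with LC3 and GABARAP proteins. TFEB and TFE3, relatives of the melanocyte regulator MITF, activate many of these genes by binding an E-box, CACGTG, in promoter elements known as CLEAR elements. Melanosomes, the pigment organelles of melanocytes and melanoma cells, are related to lysosomes and use the same pump.

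The E-box letters were sought in the promoters that RefSeq gives for mouse (GRCm38.p6), each covering 250 bases before and 50 bases after an annotated start. A promoter was listed for 36 of the 43 members, and Asah1, Atp6v1b2, Atp6v1c1, Atp6v1h, Ctsb, Ctsh and Npc1 had no entry. CACGTG, which reads the same on both strands, occurred in 12 of the 36 (33.3%), in 19 of 96 promoters of other genes of the pathway (19.8%) and in 8.09% of the promoters of 27025 genes. The longer palindrome TCACGTGA, which contains the first motif, occurred in 6 of the 36 (16.7%), in 6.25% of the other pathway genes and in 1.12% of all genes. The following promoters show 4 members that hold the box and 2, Ctsk and Ctss, whose RNA stood furthest from WT and that do not hold it. Each runs 5′ to 3′ on the strand of the gene, from 150 bases before the start to the 10th base after it, and capitals mark CACGTG. Lamp1 lies at chr8:13159011-13159170, plus strand, Mcoln1 at chr8:3500369-3500528, plus strand, Ctsd at chr7:142387818-142387977, minus strand, Atp6v0d1 at chr8:105566055-105566214, minus strand, Ctsk at chr3:95499060-95499219, plus strand and Ctss at chr3:95526636-95526795, plus strand.
Lamp1: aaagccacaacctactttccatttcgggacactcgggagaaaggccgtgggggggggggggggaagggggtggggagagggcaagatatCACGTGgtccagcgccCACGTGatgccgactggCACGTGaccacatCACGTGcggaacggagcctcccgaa
Mcoln1: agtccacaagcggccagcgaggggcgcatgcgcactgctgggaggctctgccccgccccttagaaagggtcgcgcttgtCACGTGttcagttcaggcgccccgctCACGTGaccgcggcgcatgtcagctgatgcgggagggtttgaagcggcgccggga
Ctsd: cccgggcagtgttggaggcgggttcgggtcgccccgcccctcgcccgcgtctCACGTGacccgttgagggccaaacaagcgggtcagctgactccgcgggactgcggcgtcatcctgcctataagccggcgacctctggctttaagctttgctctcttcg
Atp6v0d1: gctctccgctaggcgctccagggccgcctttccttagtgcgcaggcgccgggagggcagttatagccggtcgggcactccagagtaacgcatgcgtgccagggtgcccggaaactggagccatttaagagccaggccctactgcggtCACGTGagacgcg
Ctsk: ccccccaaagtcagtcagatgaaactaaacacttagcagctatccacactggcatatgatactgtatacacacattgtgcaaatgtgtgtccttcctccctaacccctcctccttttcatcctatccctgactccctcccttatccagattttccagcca
Ctss: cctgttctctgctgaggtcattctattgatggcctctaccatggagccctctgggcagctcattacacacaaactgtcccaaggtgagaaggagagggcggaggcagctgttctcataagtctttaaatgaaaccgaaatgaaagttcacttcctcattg

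Lamp1 held 4 copies of the box within a short stretch before its start, Mcoln1 held 2, and in Atp6v0d1 the box spanned the start itself. The Ctsd window shows 1 copy and a second lies further upstream. The members with the box were Atp6v0d1, Atp6v1a, Ctsa, Ctsd, Ctsf, Ctsl, Gaa, Gla, Glb1, Lamp1, Mcoln1 and Naglu. Their median log2 fold change against WT was 0.15 in Relapsed, 0.26 in Lyso and -0.06 in Tumor, beside 0.26, 0.21 and 0.01 for the 24 members with a listed promoter that lacked it. None of the 12 was called higher in Tumor than in WT by the test described below, whereas 5 of the 24 were, namely Ctsc, Ctsk, Ctss, Tfeb and Map1lc3b. Of all genes, 12.1% were called higher and 6.94% lower. Of the 12, 1 (Ctsd) was called lower in Tumor, and 0 of the 24. Of the 7 with no entry, 1 was called higher and 2 lower. In Lyso it was 1 of the 12 (Atp6v0d1) and 0 of the 24 that were called higher than in WT, beside 3.50% of all genes. These are descriptions with no test, and a match or its absence in this window says nothing of whether a factor binds there.

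**Figure D1:**
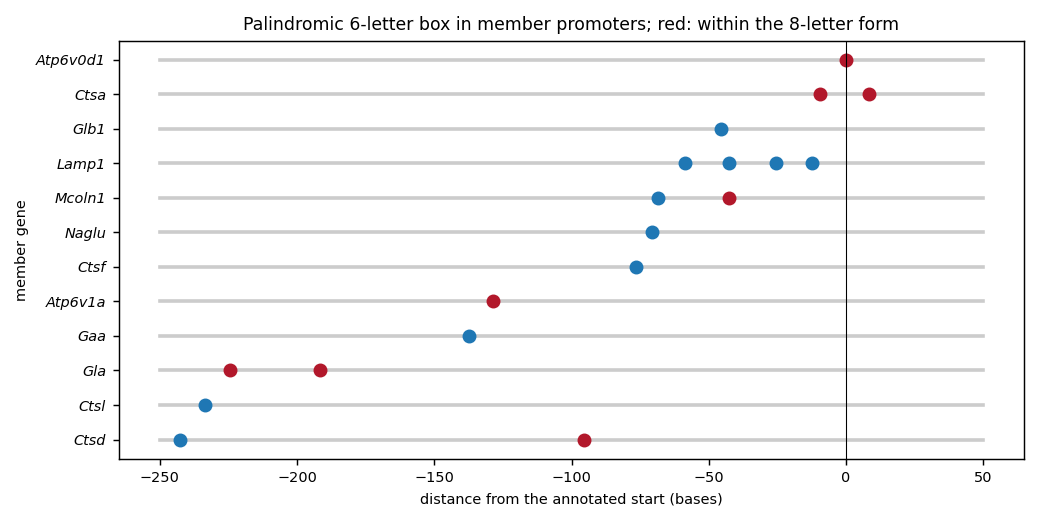
Position of the CACGTG box in the promoters of the 12 members that hold it, in bases from the annotated start (horizontal axis), one gene per row. Each point is 1 box, red where it lies within TCACGTGA, and grey lines mark the window searched. Lamp1 has 4 boxes, and the box of Atp6v0d1 lies on the start.

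Counts on genes ran from 1667398 to 16402629 per library. Of these, WT 1 and WT 2 had the fewest, followed by Tumor (3102442 to 5049496), and WT 3, the relapsed lines and Lyso had 10895611 to 16402629. Levels are given as CPM, the counts scaled to the TMM effective library size, and 3 counts stand for 1.70 CPM in WT 1 and 0.177 CPM in WT 3. The 10 melanocyte markers summed to 19488 to 37369 CPM over the 12 libraries, and all 10 were above 3 counts in every one of them. In Tumor, 10 fibroblast markers summed to 7707 to 10709 CPM against 15.1 to 39.5 in the libraries of the other 3 groups. The 12 myeloid markers summed to 58.2 to 81.4 CPM in Tumor against 8.87 to 14.2 in WT, where 8 of them had no read, 10.8 to 12.7 in Relapsed and 18.6 to 20.6 in Lyso. The 12 T-cell markers summed to 15.8 to 18.2 CPM in Lyso, 1.27 to 6.79 in WT, 0.603 to 1.92 in Relapsed and 3.82 to 9.89 in Tumor, and 8 endothelial markers to 264 to 541 CPM over all libraries. Of the 8 endothelial markers, 6 were above 3 counts in every Tumor library, beside 2 in each of WT, Relapsed and Lyso, a difference that the sum does not show. In such mixtures fewer cells of a type and less RNA per cell cannot be told apart.

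Among the members, 2 libraries stood apart. WT 1, the shallowest, had the highest WT value in 27 of the 43 members (62.8%, against 41.1% of all genes tested). ITM had the lowest relapsed value in 34 of 43 (79.1%, against 38.2% of all genes tested), and Rel the highest in 28. The median coefficient of variation of the members was 17.0% in WT, 21.5% in Relapsed, 6.11% in Lyso and 7.57% in Tumor, beside 21.7, 18.3, 8.62 and 12.1% for all genes tested.

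Each group was compared with WT to ask how the lysosomal programme of relapsed lines, of cells given T-cell lysosomes and of freshly sorted relapsed tumor cells stood against that of untreated cells. A member was called at an adjusted p under 0.05 in edgeR's quasi-likelihood test with Benjamini-Hochberg adjustment over 14924 genes, written below as edgeR adjusted p. Against WT, Tumor had 6 members called higher (Ctsc, Ctsh, Ctsk, Ctss, Tfeb and Map1lc3b) and 3 called lower (Ctsd, Atp6v1c1 and Atp6v1h), 9 of 43 (20.9%) in all. Of all genes, 19.0% were called in this comparison, 12.1% higher and 6.94% lower, so the share of members called was close to the background. Lyso had 1 member called higher than in WT, Atp6v0d1, and 0 called lower, where 4.71% of all genes were called (3.50% higher and 1.21% lower). At an unadjusted p under 0.05 edgeR gave 13 members higher and 1 lower in Lyso, beside 10.6 and 8.07% of all genes. DESeq2 at an adjusted p called 6 higher and 0 lower, beside 691 higher and 333 lower of 28974 genes. Relapsed had 0 members called in either direction, where 0.0402% of all genes were called (0.0134% higher and 0.0268% lower). At an unadjusted p under 0.05 edgeR gave 9 members, all higher in Relapsed, beside 6.24% of all genes higher. DESeq2 called 1 member, Lamp1, beside 99 higher and 75 lower of 28974 genes.

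The median log2 fold change of the members was 0.24 in Relapsed, 0.20 in Lyso and -0.05 in Tumor against WT, beside 0.01, -0.00 and 0.00 for all genes tested, and the median in Tumor was -0.05 also with Ctss, which had no read in WT, set at its lower bound. Above 0 lay 35 members in Relapsed, 33 in Lyso and 19 in Tumor. No Tumor library overlapped WT for 19 members, of which 11 were above and 8 below, against 21.0% and 15.1% of all genes. For Lyso, 15 members were above every WT library and 3 below, against 15.8% and 11.6% of all genes, and for Relapsed 5 were above, against 6.43%. These comparisons share the WT libraries. Without WT 1, the members called were 11 higher and 5 lower in Tumor, 6 higher in Lyso and 1 higher in Relapsed. Without WT 3 they were 2 higher in Tumor and 0 higher in Lyso, without Tumor 1 they were 3 higher in Tumor, without Lyso 1 or Lyso 3 they were 0 higher in Lyso, and without ITM they were 5 higher in Relapsed. The shares of all genes called with a library left out are not given here. These counts therefore do not tell a change in the members from one over all genes.

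**Figure D2:**
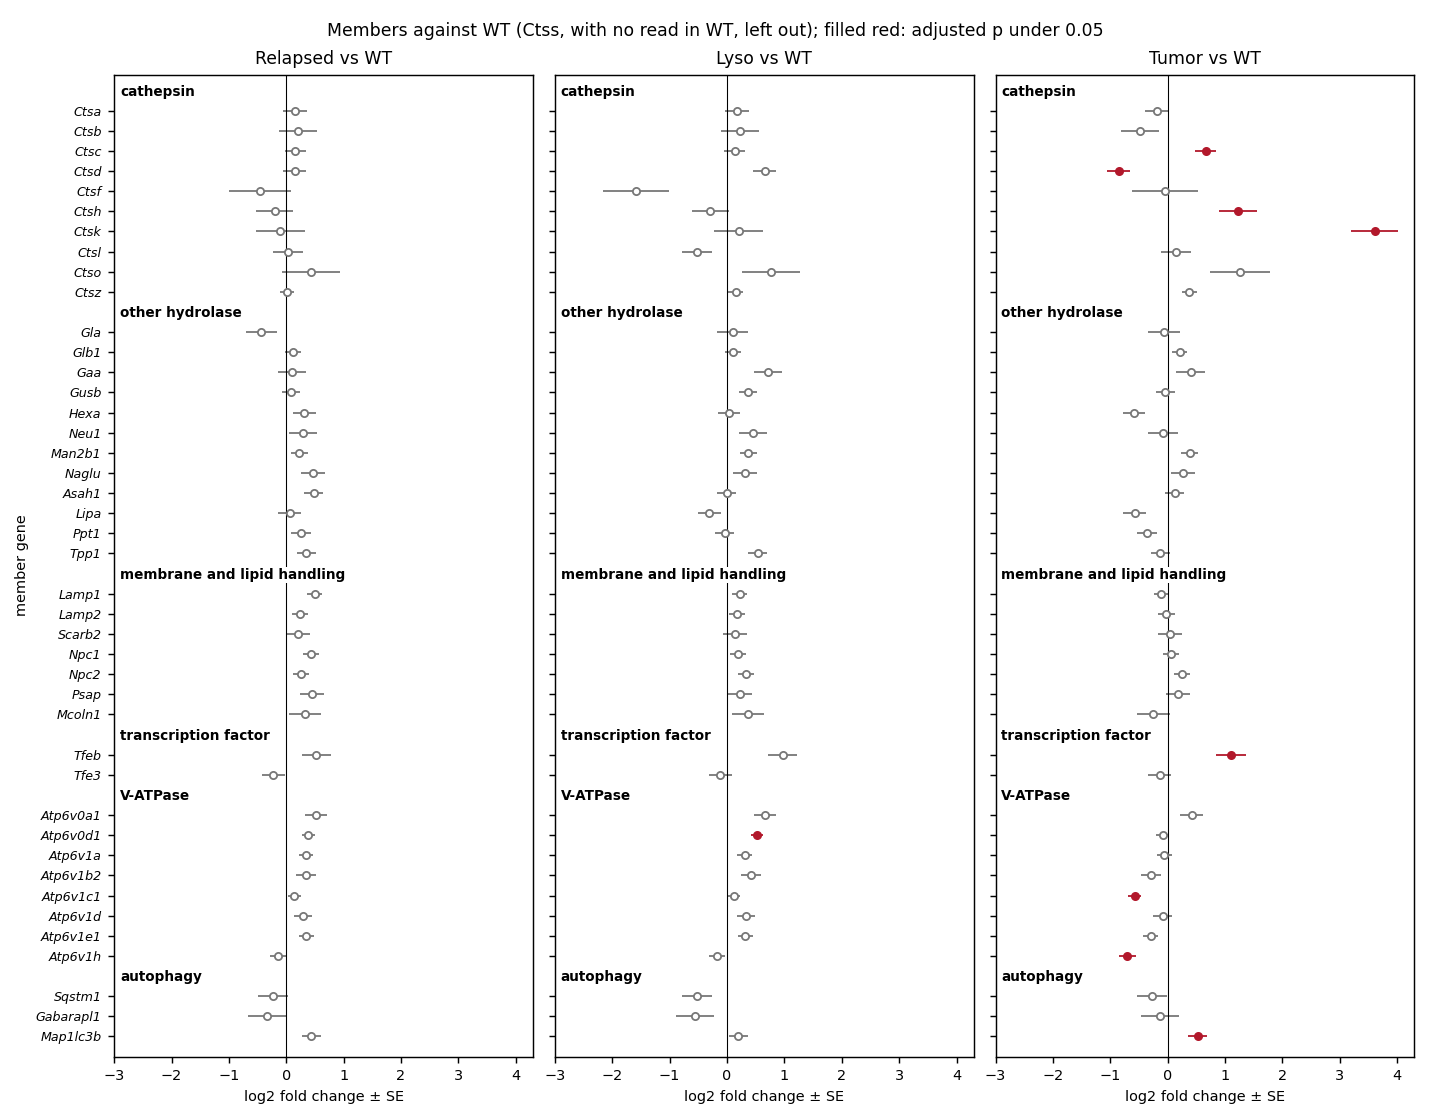
Log2 fold change against WT with its standard error (horizontal axis) for 42 members, grouped by role, in Relapsed, Lyso and Tumor. Filled red points had an edgeR adjusted p under 0.05, and Ctss, which had no read in WT, is left out. Calls number 0 in Relapsed and 1 in Lyso (Atp6v0d1), and in Tumor the 8 shown lie on both sides of 0.

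The cathepsins, the main proteases of the lysosome, moved apart from each other in Tumor. Of the 11, 4 were called higher and 1 lower than in WT, and 6 were not called, beside 12.1% of all genes called higher and 6.94% lower. Ctsk (ENSMUSG00000028111, chr3:95499256-95509362, plus strand) encodes cathepsin K, the collagen-degrading protease of osteoclasts that fibroblasts also make. Ctsk read 5.09, 2.53 and 2.77 CPM in the WT libraries, 1.23, 2.81 and 4.55 in ITF1, Rel and ITM, 3.21, 4.56 and 3.08 in Lyso and 38.4, 34.2 and 42.8 in Tumor. All 3 Tumor libraries stood far above the other 9, which overlapped with each other. Ctsk rose in Tumor by 3.61 ± 0.41 (log2 fold change ± SE) against WT, a fold of 12.2 (edgeR adjusted p = 7.21e-05), and lay 3.41 ± 0.36 above Lyso and 3.72 ± 0.36 above Relapsed on the log2 scale. The call against WT held under all 13 alternatives that gave a value, with log2 fold changes from 3.38 to 3.82.

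Ctss (ENSMUSG00000038642, chr3:95526786-95556403, plus strand) encodes cathepsin S, a protease of antigen-presenting cells that cleaves the invariant chain of MHC class II. It had no read in any WT library, 0.0768, 0.201 and 0 CPM in ITF1, Rel and ITM (at most 3 counts), 0.754, 0.931 and 0.648 CPM in Lyso (8 to 10 counts) and 3.58, 7.85 and 15.3 CPM in Tumor (11 to 65 counts). Every Lyso library lay above every WT and relapsed library, and every Tumor library above every Lyso library, while the Tumor libraries spread widely among themselves. Against the floor of 3 counts over the WT group (0.142 CPM), Ctss was at least 62.6-fold higher in Tumor (edgeR adjusted p = 0.000455) and at least 5.47-fold higher in Lyso, where edgeR did not call it (adjusted p = 0.0721) and DESeq2 did (adjusted p = 0.023). This floor rests mostly on the depth of WT 3, and over WT 1 and WT 2 alone it is 0.726 CPM, which gives bounds of 12.3-fold in Tumor and 1.07-fold in Lyso. Tumor exceeded Lyso by 3.52 ± 0.57 on the log2 scale (edgeR adjusted p = 0.0012). With no read in WT, Ctss passed the filter on low counts through its Tumor reads, so its call against WT was nearly fixed by the filter.

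Ctsh (ENSMUSG00000032359, chr9:90054152-90076089, plus strand) encodes cathepsin H, an aminopeptidase, and read 17.0, 16.5 and 18.4 CPM in WT, 24.0, 14.4 and 7.25 in ITF1, Rel and ITM, 15.0, 13.9 and 13.8 in Lyso and 47.1, 36.6 and 39.3 in Tumor. Tumor lay above all other libraries, Lyso lay just below all WT libraries, and the relapsed lines ranged from below Lyso to above WT. Ctsh rose in Tumor by 1.23 ± 0.33 against WT (edgeR adjusted p = 0.0197) and by 1.52 ± 0.31 against Lyso (edgeR adjusted p = 0.00338). Ctsc (ENSMUSG00000030560, chr7:88278085-88310888, plus strand) encodes cathepsin C, which activates granule serine proteases of T and NK cells, and read 48.7, 41.8 and 28.8 CPM in WT, 34.5, 49.7 and 43.7 in the relapsed lines, 40.0, 42.2 and 44.0 in Lyso and 57.9, 65.8 and 57.9 in Tumor. The Tumor values lay above all others, and the other 3 groups overlapped. Ctsc rose in Tumor by 0.66 ± 0.19 (edgeR adjusted p = 0.0275). With WT 2, WT 3 or Tumor 1 left out, Ctsh had an edgeR adjusted p of 0.0581, 0.0602 or 0.061, and against WT 3 alone 0.143. With WT 3, Tumor 1, Tumor 3 or Tumor 4 left out, Ctsc had 0.138, 0.0562, 0.104 or 0.0581, and it had 0.0634 in a fit of only Tumor and WT and 0.0723 with the replicate number as a block. Tumor also exceeded Lyso in Ctsc by 0.53 ± 0.18 (edgeR adjusted p = 0.0469), a call lost with any 1 of the Tumor or Lyso libraries left out (edgeR adjusted p from 0.0845 to 0.157).

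Fibroblast and myeloid marker RNA and most endothelial markers moved with these 4 cathepsins. All 10 fibroblast markers and all 9 myeloid markers that passed the filter on low counts were called higher in Tumor than in WT by edgeR, with the summed levels given above. The filter keeps a gene that is read in a single group. C1qa, C1qb and C1qc had no read outside Tumor and some other markers had few, so their calls were nearly fixed by the filter. Of the 6 endothelial markers that passed it, 5 were called higher and 1, with a log2 fold change below 0, was not called. The summed endothelial level did not rise, at 278 to 324 CPM in Tumor and 291 to 428 in WT. Of the 12 myeloid markers Itgam, Adgre1, C1qa, C1qb, C1qc, Tyrobp, Aif1 and Mrc1 had no read in WT, and each of the 12 had reads in at least 2 Tumor libraries. In Lyso, 3 of the 4 tested T-cell markers, Cd8a, Cd8b1 and Gzmb, were called higher than in WT. All 3 had no read in WT and passed the filter through Lyso, so these calls were nearly fixed as well. Gzmb had 5.95 CPM on average in Lyso. Of the 9 tested myeloid markers, 1 was called higher in Lyso than in WT. This was Ptprc, the common leukocyte antigen CD45, which is not particular to myeloid cells, with means of 0.141 CPM in WT, 2.95 in Lyso and 3.35 in Tumor. The part of these cells or their RNA in the levels of Ctsk, Ctss, Ctsh and Ctsc was not tested.

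**Figure D3:**
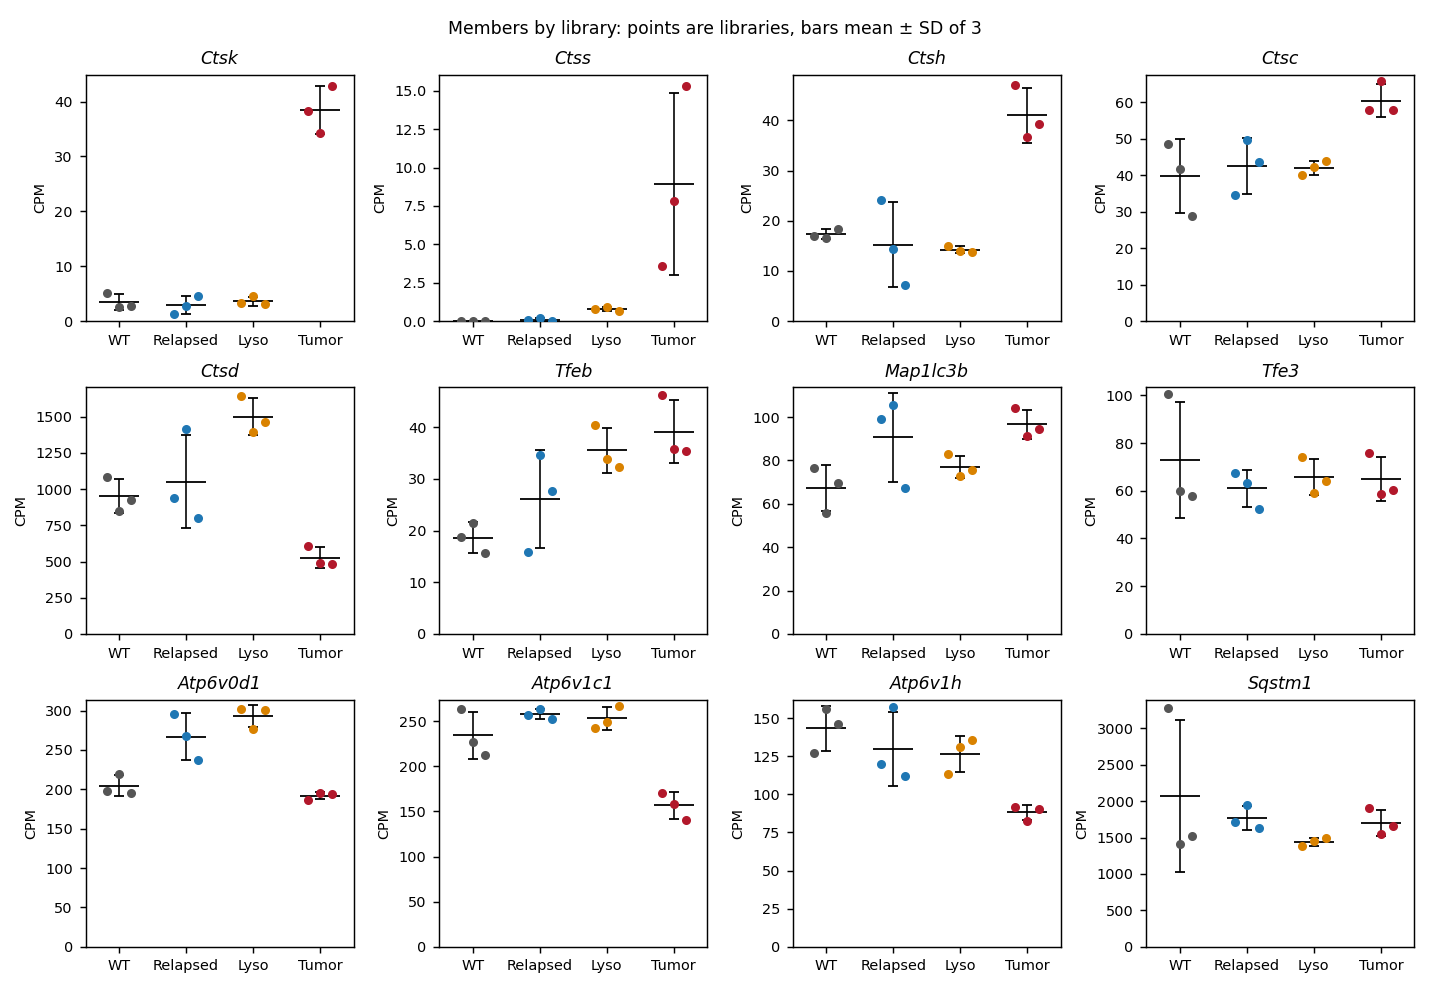
CPM (vertical axes, each starting at 0) of 12 members in every library. Points are libraries, in the order 1 to 3 (WT, Lyso), ITF1, Rel and ITM (Relapsed) and 1, 3 and 4 (Tumor), and bars are mean ± SD of 3. Ctsk, Ctss, Ctsh and Ctsc stand highest in Tumor, Ctsd, Atp6v1c1 and Atp6v1h lowest, and Sqstm1 shows the high value of WT 1.

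Ctsd (ENSMUSG00000007891, chr7:142375911-142388038, minus strand) encodes cathepsin D, the major aspartic protease of lysosomes, and went the other way. It read 1083, 848 and 926 CPM in WT, 939.5, 1414 and 802 in ITF1, Rel and ITM, 1643, 1394 and 1464 in Lyso and 609, 488 and 482 in Tumor. Every Tumor library lay below every other library, and Lyso 1 and Lyso 3 lay above all WT and relapsed libraries, with Rel alone reaching the level of Lyso 2. Ctsd fell 1.81-fold in Tumor against WT (-0.86 ± 0.20, edgeR adjusted p = 0.00973). Tumor was 2.85-fold below Lyso (-1.51 ± 0.20, edgeR adjusted p = 0.000186) and was also called lower than Relapsed (edgeR adjusted p = 0.00349). In Lyso it stood 0.66 ± 0.20 above WT without a call (edgeR adjusted p = 0.0854; DESeq2 0.0249). With WT 3 as the only control the fall in Tumor had an edgeR adjusted p of 0.0609. Of its exonic bases, 34.4% are shared on the same strand with the annotated gene Gm49369, so reads of these genes are uncertain in their origin.

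Of the 6 cathepsins that were not called in Tumor, Ctsz, Ctso and Ctsl lay above 0 with log2 fold changes of 0.38, 1.25 and 0.14, and Ctsa, Ctsb and Ctsf below it with -0.19, -0.49 and -0.05. Ctsz, a carboxypeptidase, read 456, 420.1 and 336 CPM in WT and 523, 512 and 536 in Tumor, where the groups did not overlap (edgeR adjusted p = 0.0508; DESeq2 0.0121). Ctsb, the most abundant of them in CPM, read 551, 1014 and 1049 CPM in WT, 1360.5, 1198 and 455 in the relapsed lines, 1033, 995 and 1031 in Lyso and 544, 629.6 and 688 in Tumor. WT 1 and ITM stood with the low Tumor values for Ctsb, and WT 2, WT 3, ITF1 and Rel with Lyso. Per kilobase of annotated exon, WT cells held 405 CPM per kb of Ctsd, 280.2 of Ctsz and 144 of Ctsb but 3.84 of Ctsh, 2.29 of Ctsk and 0 of Ctss. This length joins the exons of all annotated transcripts and can exceed that of the RNA present. It therefore allows only a rough comparison between genes. In Tumor the level of Ctsk was 25.4 CPM per kb and that of Ctss 6.56, both still below the 224 of Ctsd. Ctsl and Ctsb overlap genes on the opposite strand over 26.8% and 12.8% of their exonic bases, and the strand setting of the counts is not given in the sources used here.

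Both transcription factors were measured in every library. Tfeb (ENSMUSG00000023990, chr17:47737030-47792419, plus strand), whose product drives lysosomal biogenesis, read 18.7, 21.5 and 15.6 CPM in WT, 15.8, 34.7 and 27.7 in ITF1, Rel and ITM, 40.4, 33.9 and 32.2 in Lyso and 46.2, 35.8 and 35.3 in Tumor. All Lyso and Tumor libraries lay above all WT libraries and overlapped with each other, and the relapsed lines ranged from the WT level (ITF1) to the Lyso level (Rel). Tfeb rose in Tumor by 1.10 ± 0.26, a fold of 2.15 (edgeR adjusted p = 0.011), and had 0.97 ± 0.26 in Lyso without a call (edgeR adjusted p = 0.0515; DESeq2 0.0168). Without WT 3 the call in Tumor was lost (edgeR adjusted p = 0.075). Tfe3 (ENSMUSG00000000134, chrX:7762560-7775202, plus strand) read 101, 60.0 and 57.7 CPM in WT, 67.3, 63.5 and 52.4 in the relapsed lines, 74.0, 59.1 and 64.3 in Lyso and 75.7, 58.8 and 60.3 in Tumor. Apart from WT 1 the libraries of all groups overlapped, and the log2 fold change of Tfe3 was -0.14 ± 0.20 in Tumor (edgeR adjusted p = 0.683) and -0.12 ± 0.20 in Lyso (edgeR adjusted p = 0.818). These values are RNA levels, and the activity of both factors is known to be set largely by their phosphorylation and location in the cell.

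Most V-ATPase members were called lower in Tumor than in Lyso and in Relapsed, in the same fit of all 12 libraries. Between Tumor and Lyso, 12 members were called, 4 higher in Tumor (Ctsc, Ctsh, Ctsk and Ctss) and 8 lower, where 24.7% of all genes were called (14.2% higher and 10.5% lower). Of the 8 lower members 5 were V-ATPase subunits (Atp6v0d1, Atp6v1b2, Atp6v1c1, Atp6v1e1 and Atp6v1h), and the others were Ctsd, Hexa and Tpp1. Between Tumor and Relapsed, 14 members were called, 3 higher (Ctsh, Ctsk and Ctss) and 11 lower, where 19.6% of all genes were called (11.8% higher and 7.74% lower). Of these 11, 6 were V-ATPase subunits (the same 5 and Atp6v1a), and the others were Ctsd, Hexa, Lipa, Ppt1 and Lamp1. The comparisons share the Tumor libraries. Tumor libraries lay below all Lyso libraries for 21 members and above them for 11, against 26.8% and 28.0% of all genes, and below all relapsed lines for 15 and above for 7, against 17.4% and 20.1%. In a fit of only Tumor and Lyso the members called were 30, with no WT or relapsed library in the estimate of the spread. The 24.7% of all genes belongs to the fit of all 12 libraries. The share of all genes in the smaller fit is not given here, so the 30 cannot be read as a trait of the members.

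Atp6v0d1 (ENSMUSG00000013160, chr8:105524465-105566047, minus strand) encodes a V0 subunit that links the membrane ring to the central stalk. It read 198, 220.0 and 195 CPM in WT, 296, 268 and 237 in ITF1, Rel and ITM, 302, 277 and 300.2 in Lyso and 187, 195 and 194 in Tumor. Lyso and the relapsed lines lay above all WT libraries, and Tumor below all of them by a narrow margin. Atp6v0d1 rose in Lyso by 0.52 ± 0.11 against WT, a fold of 1.43 (edgeR adjusted p = 0.0185), and was 1.53-fold lower in Tumor than in Lyso (-0.61 ± 0.11, edgeR adjusted p = 0.00159), while Tumor and WT differed by -0.09 ± 0.11 (edgeR adjusted p = 0.628). The call in Lyso was lost without WT 3, Lyso 1 or Lyso 3 (edgeR adjusted p = 0.0789, 0.0777 and 0.0855) and against WT 3 alone (0.0973).

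Atp6v1c1 (ENSMUSG00000022295, chr15:38661933-38692446, plus strand) and Atp6v1h (ENSMUSG00000033793, chr1:5070018-5162529, plus strand) encode subunits C and H of V1, which take part in joining the V1 and V0 sectors and in silencing free V1. Atp6v1c1 read 263, 228 and 213 CPM in WT, 257, 264 and 253 in ITF1, Rel and ITM, 243, 249.6 and 267 in Lyso and 171, 158 and 141 in Tumor, so that only Tumor stood apart. It fell 1.49-fold in Tumor against WT (-0.58 ± 0.12, edgeR adjusted p = 0.00404) and was 1.62-fold lower than in Lyso (-0.69 ± 0.12, edgeR adjusted p = 0.000882). Atp6v1h read 127, 156 and 146 CPM in WT, 120.1, 157 and 112 in the relapsed lines, 113, 131 and 136 in Lyso and 92.0, 82.3 and 90.2 in Tumor, again with only the Tumor libraries below all others. It fell 1.63-fold in Tumor against WT (-0.70 ± 0.14, edgeR adjusted p = 0.00444), and this call held under all 14 alternatives. With the replicate number as a block Atp6v1c1 had an edgeR adjusted p of 0.05645 in Tumor against WT. Against WT 3 alone its log2 fold change was -0.461. Atp6v1h was no longer called between Tumor and Lyso without Tumor 3, Lyso 2 or Lyso 3 (edgeR adjusted p = 0.0784, 0.0591 and 0.0674). The block also removed this call (edgeR adjusted p = 0.0575). Between Tumor and Relapsed, Atp6v1h was no longer called without Tumor 3 (edgeR adjusted p = 0.064).

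Among the other V-ATPase members, Atp6v1b2 and Atp6v1e1, a catalytic-ring subunit and a peripheral stalk subunit, had the highest CPM. Atp6v1b2 read 418, 474 and 513 in WT, 727, 639.8 and 419.5 in ITF1, Rel and ITM, 581, 649 and 640.0 in Lyso and 381, 370.4 and 397 in Tumor. Atp6v1e1 read 331, 413 and 403 in WT, 424, 565 and 467 in the relapsed lines, 464, 475 and 491 in Lyso and 304, 316 and 314 in Tumor. In both genes every Lyso library lay above, and every Tumor library below, every WT library. Neither difference from WT was called in either gene, and both were called lower in Tumor than in Lyso, 1.63-fold for Atp6v1b2 (-0.70 ± 0.17, edgeR adjusted p = 0.0107) and 1.53-fold for Atp6v1e1 (-0.61 ± 0.13, edgeR adjusted p = 0.00451). Atp6v1a, Atp6v1d and Atp6v0a1 had log2 fold changes between -0.25 and -0.42 in the same comparison, with no call, and Atp6v0a1 was the only one of the 8 with a log2 fold change above 0 in Tumor against WT (0.41 ± 0.20, edgeR adjusted p = 0.166). Without ITF1, Rel, Tumor 1, Tumor 3 or Tumor 4, Atp6v1b2 was no longer called between Tumor and Relapsed (edgeR adjusted p from 0.0576 to 0.0745), nor was it in a fit of only these groups (0.0681).

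The 13 tested V-ATPase genes outside the members were counted with the 8 members. Of these 21 genes, 16 were called lower in Tumor than in Lyso (10.5% of all genes) and 14 lower in Tumor than in Relapsed (7.74% of all genes), with none called higher, and the median log2 fold change was -0.61 and -0.53. Against WT, 5 of the 21 were called lower in Tumor and none higher, with a median of -0.30 (6.94% of all genes were called lower), and 3 were called higher in Lyso (3.50% of all genes). Tcirg1 (subunit a3) differed between Tumor and Lyso by -1.13 ± 0.21 and Atp6v0c, the proton-binding ring subunit, by -0.82 ± 0.16, whereas Atp6ap2 and Atp6v1g2 had -0.12 ± 0.14 and 0.21 ± 0.28 with no call. The sign of these medians was the same with DESeq2, with RLE size factors and with library size as the only scaling. Without Rel, Tumor 1, Tumor 3 or Tumor 4, the genes called lower in Tumor than in Relapsed were 9, 8, 9 and 7. The fibroblast markers, which summed to 7707 to 10709 CPM in Tumor and to at most 39.5 CPM elsewhere, moved with this difference. So did the melanocyte markers, which summed to 29647 to 30441 CPM in Lyso, 23131 to 37369 in Relapsed and 19786 to 21941 in Tumor. Of these 10 markers, 10 had log2 fold changes below 0 in Tumor against Lyso (median -0.57, 4 called lower) and 9 in Tumor against Relapsed (median -0.36, 4 called lower). The part of either in the V-ATPase difference was not tested.

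**Figure D4:**
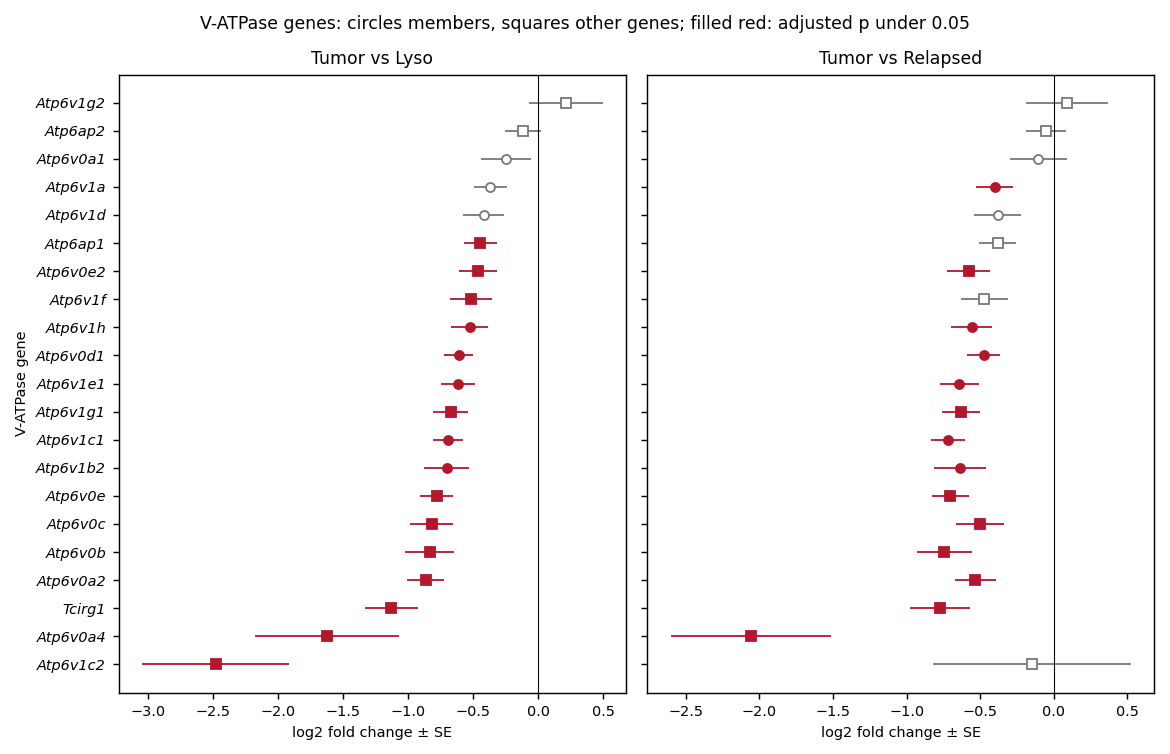
Log2 fold change with its standard error (horizontal axes) of 21 V-ATPase genes in Tumor against Lyso and in Tumor against Relapsed. Circles are members, squares the other tested genes, and filled red symbols had an edgeR adjusted p under 0.05. Of the 21, 16 were called lower against Lyso and 14 against Relapsed.

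None of the 12 other hydrolases was called against WT in any group by edgeR, while DESeq2 called Hexa lower in Tumor (adjusted p = 0.0337) and Tpp1 higher in Lyso (adjusted p = 0.0293). In Tumor 5 had log2 fold changes above 0 and 7 below, from -0.59 (Hexa) to 0.40 (Gaa). Hexa, the alpha subunit of beta-hexosaminidase, read 425, 393 and 524 CPM in WT, 692, 613 and 362 in ITF1, Rel and ITM, 459, 458 and 458 in Lyso and 305, 308 and 279.9 in Tumor. Tumor lay below every other library for Hexa, with -0.59 ± 0.20 against WT (edgeR adjusted p = 0.0573), -0.62 ± 0.20 against Lyso (edgeR adjusted p = 0.0371) and -0.90 ± 0.20 against Relapsed (edgeR adjusted p = 0.0066). Tpp1, tripeptidyl peptidase 1, read 358, 232 and 248 CPM in WT, 441, 382 and 386 in Lyso and 267, 257 and 241 in Tumor, with Lyso above both other groups and Tumor overlapping WT. Tpp1 was 1.58-fold lower in Tumor than in Lyso (-0.66 ± 0.16, edgeR adjusted p = 0.00988). Gaa, acid alpha-glucosidase, which digests glycogen, read 387, 212 and 239 CPM in WT and 513, 423 and 435 in Lyso, where the groups did not overlap and no call was made (0.72 ± 0.25, edgeR adjusted p = 0.131). Lipa, the acid lipase, and Ppt1, a thioesterase, were called lower in Tumor than in Relapsed, with log2 fold changes of -0.63 (edgeR adjusted p = 0.0434) and -0.62 (edgeR adjusted p = 0.0203). With any 1 of the 6 Tumor and Lyso libraries left out, Hexa was no longer called between these groups (edgeR adjusted p from 0.0806 to 0.112). Hexa overlaps a gene on the opposite strand over 12.8% of its exonic bases.

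The 7 membrane and lipid-handling genes were not called against WT in any group by edgeR. All 7 had log2 fold changes above 0 in Relapsed (median 0.33) and in Lyso (median 0.22), while in Tumor 4 lay above 0 and 3 below. Lamp1 (ENSMUSG00000031447, chr8:13159161-13175338, plus strand), the main glycoprotein of the lysosomal membrane, read 805, 788 and 718 CPM in WT, 1123, 1171 and 967 in ITF1, Rel and ITM, 908, 884 and 902 in Lyso and 793, 708 and 635 in Tumor. The relapsed lines lay above every other library, Lyso lay above WT, and Tumor overlapped WT. Lamp1 had 0.50 ± 0.13 in Relapsed (edgeR adjusted p = 0.188; DESeq2 0.00591) and was 1.53-fold lower in Tumor than in Relapsed (-0.61 ± 0.13, edgeR adjusted p = 0.00481). Without ITM, edgeR called Lamp1 higher in Relapsed than in WT (adjusted p = 0.0475). Psap, the precursor of the saposins, read 739.8, 817 and 823 CPM in WT, 1279, 1310.5 and 645 in ITF1, Rel and ITM, 938, 908 and 939 in Lyso and 926, 897 and 870.2 in Tumor, with ITM below all others. Lamp2, Scarb2, Npc1, Npc2 and Mcoln1, the calcium channel mucolipin-1, had log2 fold changes in Tumor from -0.25 (Mcoln1) to 0.25 (Npc2).

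Of the autophagy genes, Map1lc3b (ENSMUSG00000031812, chr8:121590361-121598760, plus strand), which encodes LC3B, read 76.4, 55.7 and 69.4 CPM in WT, 99.1, 105 and 67.4 in ITF1, Rel and ITM, 82.9, 72.8 and 75.6 in Lyso and 104, 91.2 and 94.4 in Tumor. Tumor lay above all WT and Lyso libraries, and ITF1 and Rel reached the Tumor level. Map1lc3b rose in Tumor by 0.52 ± 0.17 (edgeR adjusted p = 0.0473). This call was lost without WT 2, WT 3, Tumor 1, Tumor 3 or Tumor 4 (edgeR adjusted p from 0.0877 to 0.159). It was also lost with library size as the only scaling (edgeR adjusted p = 0.0799) and with the replicate number as a block (edgeR adjusted p = 0.0535). Against WT 3 alone the log2 fold change was 0.456. Sqstm1, the cargo receptor p62, read 3273, 1409.8 and 1522 CPM in WT, 1709, 1952 and 1635 in ITF1, Rel and ITM, 1379.9, 1456 and 1489 in Lyso and 1900.0, 1546 and 1659 in Tumor. Gabarapl1 read 288, 94.6 and 109 in WT, 126, 158 and 97.0 in the relapsed lines, 101, 114 and 115 in Lyso and 160.2, 135 and 148 in Tumor. In both genes WT 1 alone stood above all other 11 libraries, and no difference from WT was called. Per kilobase of annotated exon, a rough measure as said above, Sqstm1 had the highest level of the members in WT, at 616 CPM per kb. It was followed by Ctsd (405), Psap (289), Lamp1 (288) and Ctsz (280.2). Sqstm1 and Gabarapl1 overlap genes on the opposite strand over 17.3% and 28.3% of their exonic bases.

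The levels of the members were also summed by role in each library. The 8 V-ATPase members summed to 2216, 2206 and 2142 CPM in WT, 2716, 3079.5 and 2372 in ITF1, Rel and ITM, 2721, 2797 and 2864 in Lyso and 1930.2, 1979 and 1918 in Tumor. Tumor lay below and Lyso and the relapsed lines above every WT library. The cathepsins summed to 2657 to 2711 CPM in WT, 3246 to 3569.6 in Lyso and 2159 to 2276 in Tumor without overlap, and to 3272, 3552 and 2034 in ITF1, Rel and ITM, where ITM lay below Tumor and the other lines above WT. Ctsd and Ctsb made up most of these cathepsin sums, and Ctsk, Ctss, Ctsh and Ctsc, which rose in Tumor, a small share. The 12 other hydrolases summed to 1837 to 2335 CPM in WT, 2481 to 2594 in Lyso and 1988 to 2010.2 in Tumor, and the 7 membrane genes to 2349 to 2513, 2793 to 2869.7 and 2369 to 2649. For the membrane genes Lyso lay above WT and Tumor overlapped it.

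**Figure D5:**
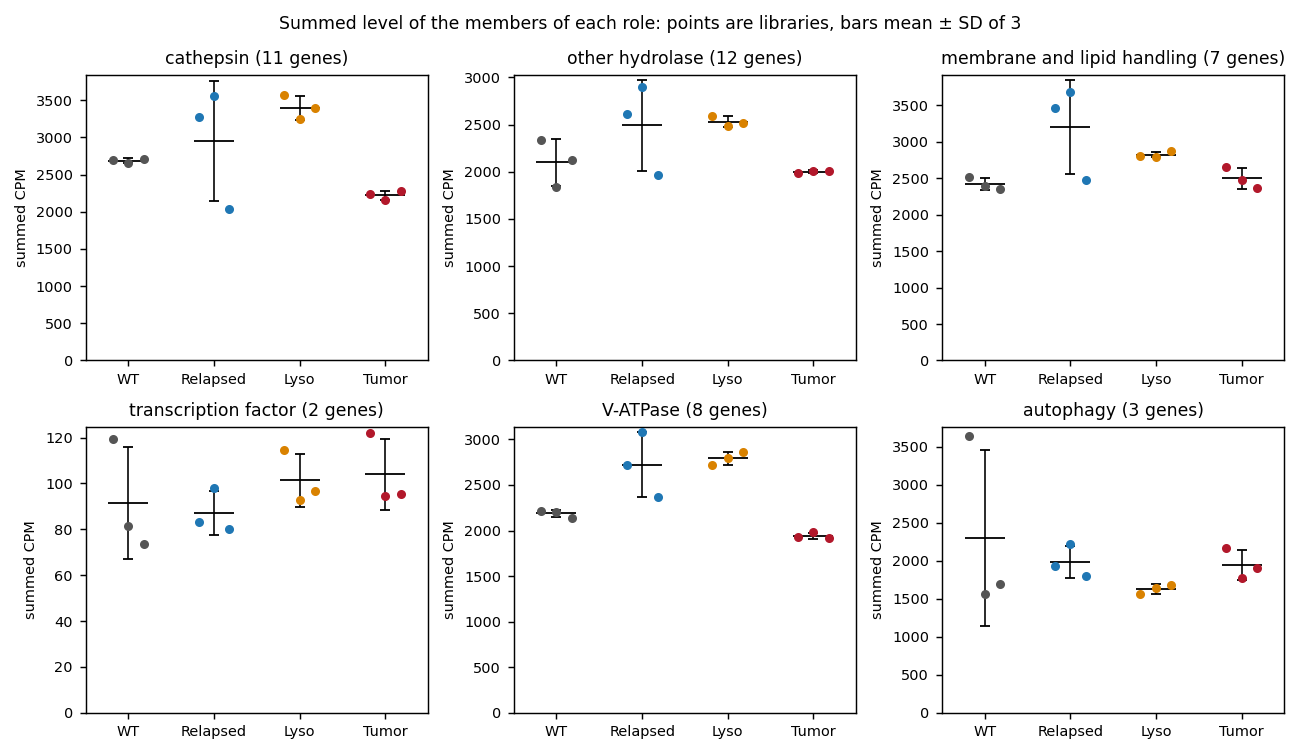
Summed CPM of the members of each role (vertical axes, each starting at 0) in every library of the 4 groups. Points are libraries and bars are mean ± SD of 3. The V-ATPase sum is lowest in Tumor (1918 to 1979) and the cathepsin sum highest on average in Lyso, and ITM is the lowest of the relapsed lines in all 6 panels.

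Between Lyso and Relapsed, 0 members were called by edgeR, where 7.69% of all genes were called (4.87% higher and 2.81% lower). At an unadjusted p under 0.05 there were 4 members, beside 22.3% of all genes. DESeq2 called 1 member, Ctss, beside 890 higher and 569 lower of 28974 genes. Without ITF1, ITM or Rel, edgeR called 1, 5 and 2 members. The 8 V-ATPase members had log2 fold changes between these groups from -0.03 to 0.14.

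A wider list of 122 genes of the lysosome, V-ATPase, autophagy and nutrient sensing held 113 that were tested. In Relapsed against WT edgeR called 0 of the 113, beside 0.0402% of all genes. At an unadjusted p under 0.05 edgeR gave 15, all higher, beside 6.24% of all genes higher. DESeq2 called 1, beside 99 higher and 75 lower of 28974 genes. Without ITM edgeR called 3 in Relapsed. In Lyso, 7 were called higher and 3 lower, 8.85% of those tested beside 4.71% of all genes (3.50% higher and 1.21% lower). Fuca1, a fucosidase, rose in Lyso from 85.4 ± 5.55 to 121 ± 7.05 CPM (mean ± SD, n = 3), a log2 fold change of 0.50 ± 0.11 (edgeR adjusted p = 0.0256). On the same scale Laptm4b rose by 0.67 ± 0.15, Atp6v0c by 0.70 ± 0.17 and Fnip2, a folliculin partner in nutrient sensing, by 0.46 ± 0.11. Atp6v1c2 and Laptm5 were called higher from near 0, with means of 0.388 and 0.0786 CPM in WT and 2.29 and 1.55 CPM in Lyso. Wipi1, which binds the phosphoinositide of forming autophagosomes, differed by -0.98 ± 0.25, Atg101 by -0.48 ± 0.13 and Pcyox1 by -0.45 ± 0.12, and all 3 were called lower. Without WT 2, WT 3, Lyso 1, Lyso 2 or Lyso 3, edgeR called 4, 3, 2, 2 and 4 of the list in Lyso, and against WT 3 alone 2.

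In Tumor, 11 of the 113 were called higher than in WT and 9 lower, 17.7% of those tested beside 19.0% of all genes (12.1% higher and 6.94% lower), so the share called was not above the background. Bnip3, a mitophagy receptor induced in low oxygen, stood at 18.4 ± 4.73 CPM in WT, 15.4 ± 1.93 in Lyso and 208 ± 40.5 in Tumor, and Bnip3l, its relative, at 49.6 ± 4.36, 37.4 ± 0.587 and 131 ± 14.4 (edgeR adjusted p against WT = 0.0118 and 0.00342). Among the relapsed lines Bnip3 read 235, 34.7 and 9.83 CPM in ITF1, Rel and ITM, so that ITF1 stood with Tumor and ITM below WT. Ulk1, the kinase that starts autophagy, rose by 0.66 ± 0.14, and Atg4d and Atg3 fell, with -0.48 ± 0.13 and -0.47 ± 0.14. Mitf, the master regulator of melanocytes and a relative of Tfeb, rose from 442 ± 188 to 884 ± 67.8 CPM (0.99 ± 0.24, edgeR adjusted p = 0.0113), while Lamtor3 fell (-0.40 ± 0.13). Sort1, a sorting receptor for hydrolases, rose by 0.89 ± 0.18 and Tpcn1, a calcium channel, by 0.67 ± 0.14, and Laptm5, known from haematopoietic cells, was called higher at a mean of 4.46 CPM, with the myeloid markers given above moving alike. The hydrolases Lgmn (legumain), Naaa and Manba rose by 0.76 ± 0.15, 1.21 ± 0.30 and 0.60 ± 0.17, and Dnase2a and Aga fell, with -0.93 ± 0.17 and -0.65 ± 0.19. Of the V-ATPase genes Atp6v1g1, Atp6v0a4 and Atp6v0e fell, with -0.65 ± 0.13, -2.46 ± 0.56 and -0.52 ± 0.13. Without WT 1 edgeR called 31 of the list in Tumor.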

How the data were processed

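The authors trimmed reads with fastp, aligned them to GRCm38 with STAR and deposited raw read counts per gene for 12 libraries, without normalization (fastp 0.19.6, STAR 2.7.1a and DESeq2 1.24.0 are named in the submitters' processing notes). The strand setting and the annotation release are not given in the sources used here. The table holds 54232 genes and 4 rows that are no genes. On genes fell 36.17 to 39.36% of the reads of a library and on no feature 43.53 to 44.77%. Symbols, positions and exonic lengths were taken from GENCODE M21 of GRCm38.

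All 12 libraries entered a single edgeR model (version 4.0.16, run under R 4.3.3). The deposited counts were scaled by TMM and filtered with filterByExpr by group, which left 14924 genes, and tested with glmQLFTest after glmQLFit, with Benjamini-Hochberg adjustment over all genes and a threshold of 0.05. Standard errors were computed as the absolute log2 fold change divided by the root of the F statistic. DESeq2 1.42.0 was an alternative, as were RLE size factors, library size only, no filter, at least 10 counts in every library, only the groups compared, the replicate block, WT 3 as the only control, an absolute log2 fold change over 1 and each library left out in turn. The scripts were tested on simulated data, with 100 genes changed 2-fold and 100 changed 4-fold in Tumor against WT at a set dispersion of 0.05. Of these, edgeR called 39 and 96, and it called 10 genes that had no change. These counts are for Tumor against WT at that dispersion only, and they set no upper limit on the difference of a member that was not called. Ctso, for example, was not called in Tumor against WT at a log2 fold change of 1.25. Lyso 2 and Lyso 3, the most alike libraries, differed by more than sampling noise (chi-square of 1.55 per degree of freedom), so no libraries were merged. Counts on genes per library were 1667398, 2350129 and 16384021 (WT), 12749399, 15087577 and 16402629 (ITF1, Rel and ITM), 11308177, 10895611 and 12675277 (Lyso) and 3102442, 5049496 and 4317373 (Tumor).

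The members and lists were chosen with earlier results of these data known. Members were named if called against WT, or if called between Tumor and Lyso with an absolute log2 fold change over 1, along with Tfeb and Tfe3 and up to 3 of each role by highest level, and of the wider list up to 3 genes per role and direction with the smallest p. The other members named, the count of V-ATPase genes over both lists and the settings tried for Sqstm1, Gabarapl1, Atp6v1b2, Atp6v1e1, Tpp1, Hexa and Lamp1 were chosen after their values were seen. Counting intervals and floors cover counting error only. No sequencing batch is given, and depth and group are partly confounded. Promoter sequences are those of RefSeq. Of the wider list, 1 gene that the naming rule selects is not reported here.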

Additional observations from a re-analysis of the deposited data

Results flagged for a closer look

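For 12 genes every Lyso library lay on one side of all WT libraries and every Tumor library on the other, and the difference between Tumor and Lyso was called by edgeR. That difference is given here as a log2 fold change ± SE with its edgeR adjusted p, from the fit of all 12 libraries, and the genes were picked by their position against WT. The pattern was met by 5 of the 43 members (11.6%) and by 3.12% of all genes tested. Ctsd (-1.51 ± 0.20, adjusted p = 0.000186) was higher in Lyso and lower in Tumor, and the V-ATPase members Atp6v0d1 (-0.61 ± 0.11, 0.00159), Atp6v1b2 (-0.70 ± 0.17, 0.0107) and Atp6v1e1 (-0.61 ± 0.13, 0.00451) had the same pattern. So did Scpep1 (-0.56 ± 0.14, 0.00948), Glmp (-0.74 ± 0.13, 0.00124), Atp6v1f (-0.52 ± 0.16, 0.0339) and Atp6ap1 (-0.45 ± 0.13, 0.0207) of the wider list. The opposite pattern, lower in Lyso and higher in Tumor, was shown by Ctsh (1.52 ± 0.31, 0.00338), Wipi1 (1.33 ± 0.25, 0.00204), Atg2b (0.46 ± 0.11, 0.0095) and Bnip3l (1.81 ± 0.27, 0.000382).

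Fibroblast marker RNA was high in Tumor and T-cell marker RNA was highest in Lyso, and their part in these differences was not tested.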

How the results depend on the processing

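Each count was recomputed under other settings, and all counts are of edgeR calls unless DESeq2 is named. Members called higher in Relapsed numbered 0, and 1 with DESeq2 (0 to 5 when 1 library was left out). Members higher in Lyso numbered 1, and 6 with DESeq2, 7 without a filter, 2 with at least 10 counts in every library, 4 in a fit of only the groups compared and 0 with an absolute log2 fold change over 1 (0 to 6 when 1 library was left out). Members lower in Lyso numbered 0, and 1 without a filter or in a fit of only the groups compared. Members higher in Tumor numbered 6 (2 to 11 when 1 library was left out), and 4 at an absolute log2 fold change over 1. Members lower in Tumor numbered 3, and 5 with library size only, without a filter or in a fit of only the groups compared, 1 with WT 3 as the only control and 0 with a log2 fold change over 1 (3 to 5 when 1 library was left out). Between Tumor and Lyso the 12 calls became 30 in a fit of only these groups and 4 over a log2 fold change of 1 (9 to 11 when 1 library was left out). Between Tumor and Relapsed the 14 became 3 over a log2 fold change of 1 (10 to 20). Between Lyso and Relapsed the 0 became 1 with DESeq2 and 4 without a filter (0 to 5). For the wider list, the 0 called in Relapsed became 1 with DESeq2 and 5 without a filter (0 to 3), the 10 in Lyso became 2 against WT 3 alone and 2 over a log2 fold change of 1 (2 to 11), and the 20 in Tumor became 5 over a log2 fold change of 1 (14 to 31). The V-ATPase genes lower in Tumor, 16 against Lyso and 14 against Relapsed, became 3 and 1 over a log2 fold change of 1 (11 to 13 and 7 to 15 when 1 library was left out). The cause of these changes was not tested, apart from the limit on the log2 fold change, which can only remove calls. For most of these settings the share of all genes called is not given here. A change in a count is therefore not set against the change over all genes.

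With the replicate number as a block, 5 members were called higher in Lyso, and 5 and 12 genes of the wider list were called in Lyso and Tumor. The deviations of same-numbered libraries correlated by -0.00809 to 0.0649. Counting noise in the shallow libraries can hide a pairing, so these values do not tell whether the numbers pair the samples. Over 18 members and 6 comparisons, 1302 alternative values kept their side of the threshold, 51 lost a call and 39 gained one. Of the 1302, 48 changed sign without being called in either fit, and no called value changed sign. With library size as the only scaling, the median of all genes in Lyso against WT was -0.10 and that of the members 0.11. Against WT 3 alone the lone control is assumed to vary like the other groups. With 1667398 counts in WT 1, members near 0 such as Ctss, Ctsf, Ctso and Ctsk rest on few WT reads.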
